A study of Mus musculus with 4 samples.

Results

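CORIN- cells from an ESC culture were compared with CORIN- cells from the fetal ventral midbrain (VM), gene by gene, over the whole mouse transcriptome. All 21789 transcript clusters with 1 gene symbol, of 28856 on the array, entered the comparison, and the brightest cluster of each symbol gave 19938 genes. The value for a gene is its log2 signal in the ESC-derived array minus its log2 signal in the fetal array, so that a difference of 1 is 2-fold and a positive value is higher in the ESC-derived cells. The study behind these arrays searched for surface markers of midbrain dopaminergic (mDA) progenitors and hybridized 4 sorted populations, CORIN+ and CORIN- cells of each source, with 1 array per population. The ESC-derived CORIN- cells were CORIN-LMX1A::GFP+ cells, sorted on day 9 from 129SVEV ESCs in which GFP had been placed at the Lmx1a locus by homologous recombination. These ESCs were maintained on mouse embryo fibroblasts with LIF and then grown as floating aggregates (the SFEBq method), with FGF8b and SHH added during the early days of culture. Later, before the sort, ascorbic acid, BDNF and N2 supplement were added and the KSR supplement was removed. The fetal CORIN- cells were VM cells of C57BL/6N fetuses at E11.5 that the CORIN antibody did not select, with no GFP sort. Each sort gave at least 100000 cells. Culture against tissue, the GFP sort, the 129SVEV and C57BL/6N backgrounds and the developmental day all differed between the arrays, and their parts in any difference cannot be told apart. How many fetuses or culture wells each array pooled is not given in the sources used here. With 1 array per population no difference below has a replicate check or a p-value, and the number of arrays limits its precision.

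At this age the midbrain is patterned along its long axis by signals from the isthmus at its caudal border, where FGF8 and WNT1 maintain En1, En2, Pax2 and Pax5, and along its dorsoventral axis by SHH from the floor plate and BMPs from the roof plate. Floor plate cells of the midbrain express CORIN, a surface serine protease, and give rise to mDA neurons under the control of LMX1A, LMX1B and FOXA2. Lateral to them lie progenitors of GABAergic neurons, oculomotor neurons and the red nucleus, and dorsally the alar plate forms the colliculi.

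The distributions of both arrays were close to each other, with median log2 signals between 7.97 and 8.03 over the 4 arrays of the study. Over all genes the median difference was -0.01 and the scaled median absolute deviation was 0.29, a spread over genes and not over replicates. The signals of the 19938 genes had a Pearson correlation of 0.958 between the arrays, which is across genes that are not independent replicates. Actb differed by -0.12, Tbp by 0.07 and Hprt by 0.64. At least 2-fold higher in the ESC-derived array were 906 genes, which is 4.54% of all genes, and at least 2-fold lower were 702 genes, 3.52%, together 8.07%. At 8-fold these counts were 36 and 34. In bulk RNA fewer cells of a type and less RNA per cell cannot be told apart, which holds for every result below.

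**Figure D1:**
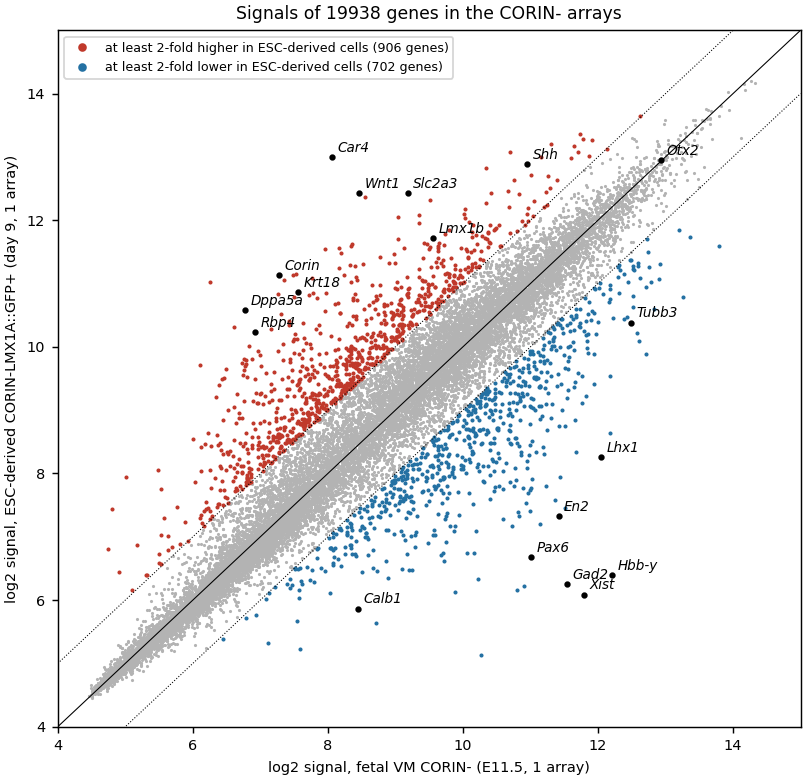
Log2 signal of 19938 genes in the fetal VM CORIN- array (horizontal axis) and the ESC-derived CORIN-LMX1A::GFP+ array (vertical axis), 1 array each. The solid line marks equal signals and the dotted lines 2-fold, red points are the 906 genes at least 2-fold higher and blue points the 702 genes at least 2-fold lower in the ESC-derived array, and black points are named examples, among them Gad2 (6.25 against 11.54).

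The genes farthest apart were a mixture of regional, metabolic and cell-type genes. The highest was Car4, which encodes a membrane-bound carbonic anhydrase, with 8.06 in the fetal array and a log2 difference of 4.94 (30.7-fold). Wnt1, Corin, the secreted Wnt inhibitor Dkk1, the pluripotency-associated gene Dppa5a, the metalloproteinase gene Adamts5 and the floor plate transcription factor Ferd3l were among those that followed, with differences between 3.62 and 3.96. The rest of the 20 highest were Slitrk6 (3.71), Trabd2b (3.64), C330024D21Rik (3.60), Car3 (3.59), Calcrl (3.57), P3h2 (3.31), Rbp4 (3.31), Krt18 (3.31), Kitl (3.30), Bmp4 (3.28), Krt8 (3.27), Kcnma1 (4.78) and Steap2 (3.39). Kcnma1 and Steap2 have another cluster with a difference of the opposite sign, -1.03 for Kcnma1 and -0.44 for Steap2, so their differences are uncertain. At the other end the embryonic globin Hbb-y was at 6.39 against 12.21 (56.4-fold lower), and Xist, the RNA that coats the inactive X chromosome, was at 6.08 against 11.79 (52.3-fold lower). Gad2, AI506816, Tfap2b, Ndst3, Pax6, En2, Lhx9, Dlx1, Olig3, Lhx1, Hba-x, Tfap2d, Kcnk10, Dlx2, Gata3, Pantr1, Gata2 and Minar2 made up the remaining 18 of the 20 lowest, with differences from -5.29 to -3.43. Among these are 11 genes for homeodomain, GATA, AP-2 or bHLH transcription factors that mark regions of the neural tube.

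The genes were further read through 36 lists, each for a cell type, a region of the brain or a pathway, in which 693 of 745 different genes were measured. The median difference was positive in 23 lists and negative in 13. Counts past 2-fold in a list stand beside 4.54% of all genes higher and 3.52% lower. Between the CORIN+ arrays these shares of all genes were 2.98% and 4.37%. Floor plate (1.34) and glycolysis with the hypoxia response (1.03) stood at the top, and the GABAergic lineage (-2.52), pan-neuronal genes (-1.62) and the alar plate (-1.39) at the bottom, beside -0.01 for all genes.

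**Figure D2:**
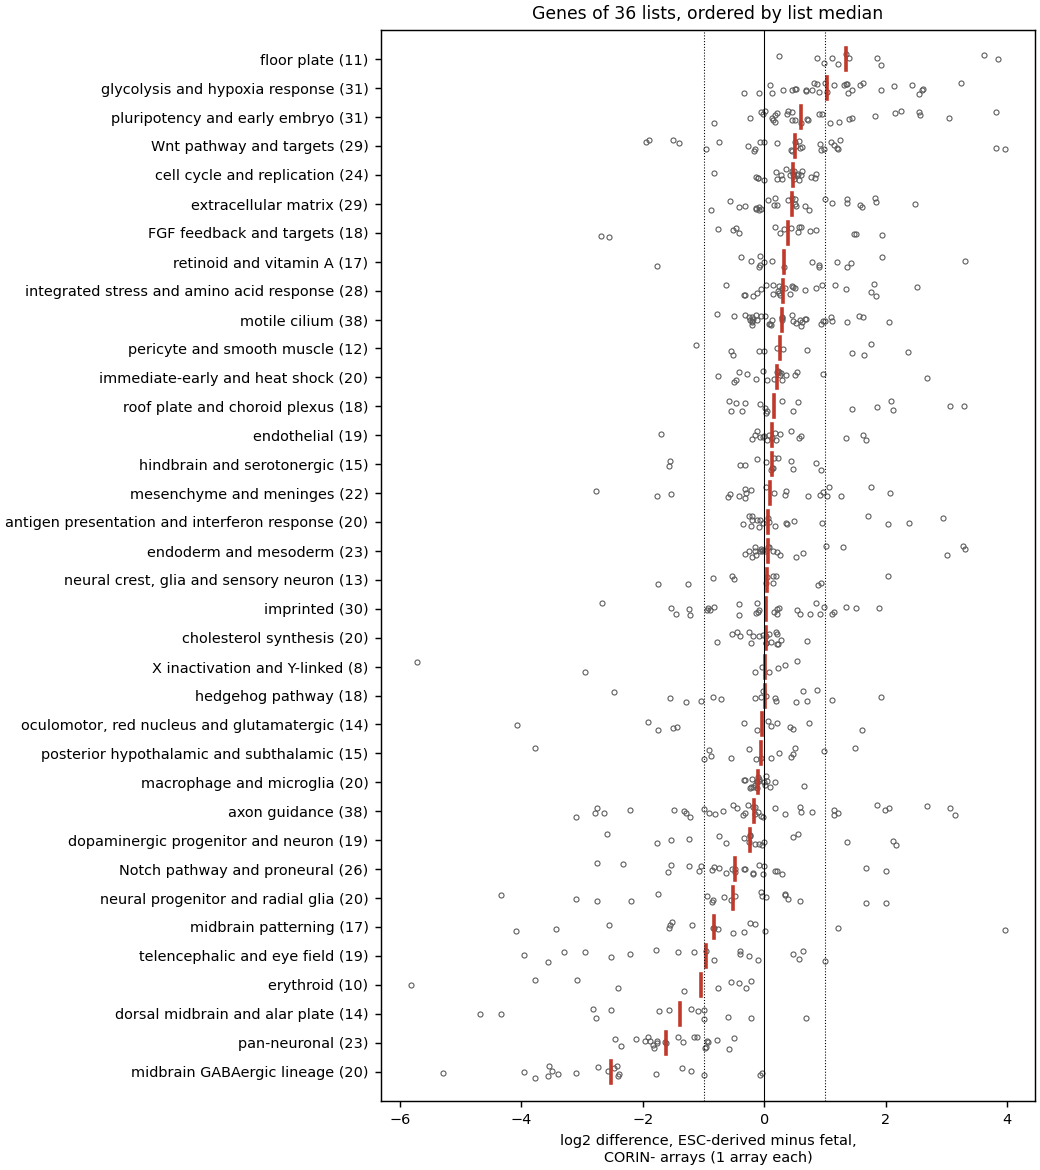
Log2 difference of each measured gene in 36 lists, ESC-derived CORIN-LMX1A::GFP+ minus fetal VM CORIN-, 1 array each, with the number of genes after each name. A circle stands for a gene, a red bar for the median of a list and a dotted line for 2-fold. The floor plate list has the highest median (1.34) and the midbrain GABAergic list the lowest (-2.52).

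Floor plate genes were higher in the ESC-derived CORIN- array. All 11 measured genes had a positive difference, 8 of them at least 2-fold, and in the CORIN+ pair (ESC-derived CORIN+LMX1A::GFP+ minus fetal CORIN+) 7 of 11 were, with a median of 1.22. Corin itself, which the sort was meant to separate, had a signal of 11.13 in the ESC-derived CORIN- array and 7.28 in the fetal one, a 14.4-fold difference. In the CORIN+ arrays it was 13.10 and 11.43, so the ESC-derived cells sorted as CORIN- carried nearly as much Corin RNA as fetal cells sorted as CORIN+. The arrays hold RNA, and the surface protein on which the cells were sorted was not measured in them. Shh, the ventral signal made by the floor plate, was at 12.88 against 10.95, and Ferd3l, a bHLH factor of the floor plate, was at 11.15 against 7.53. The pioneer factor gene Foxa1 was at 12.99 against 11.60 and its relative Foxa2 at 11.18 against 10.31, 1.82-fold and thus under the threshold. The secreted guidance molecules Slit2 and Ntn1 were 3.61-fold and 2.33-fold higher, the adhesion molecule gene Alcam 2.53-fold, and the ventral progenitor factor gene Nkx6-1 2.17-fold. Spon1 (0.24) and Lrtm1 (0.98) were the others under 2-fold. The genes past 2-fold were not all the same in the CORIN+ pair, where Alcam (-0.13) and Slit2 (0.73) were under it and Lrtm1 (1.22) was past it.

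Genes of mDA progenitors and neurons went both ways. Of 19 measured genes, 3 were at least 2-fold higher, 4 at least 2-fold lower and 12 under 2-fold. Lmx1b, which specifies mDA progenitors together with Lmx1a, was at 11.72 against 9.56 (4.47-fold). Msx2, a homeobox gene of midline progenitors, was at 9.52 against 7.41 (4.33-fold), and Aldh1a1, an enzyme of retinoic acid synthesis found in a subset of mDA neurons, was 2.57-fold higher. The genes of dopamine synthesis and transport lay close together in both arrays. Th, the rate-limiting enzyme, had signals of 10.49 and 10.02, Ddc, the next enzyme of the pathway, 9.85 and 9.93, and the vesicular transporter gene Slc18a2 9.55 and 9.70. The plasma membrane transporter gene Slc6a3 (7.09 and 7.33) and the late transcription factor gene Pitx3 (8.03 and 8.07) were near the median signal of the arrays or below it in both. Nr4a2 (Nurr1), needed by postmitotic mDA cells, was at 10.91 and 11.66, a difference of -0.75. Lower by at least 2-fold were the calcium-binding protein genes Calb1 (5.86 against 8.45) and Calb2, Ebf1, which acts in postmitotic neurons, and the imprinted gene Dlk1, whose signals were 11.08 and 12.62. Lmx1a, whose locus drives the GFP of the sort, was not analysed here.

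Genes that place cells along the midbrain axis did not move as a block. Of 17 patterning genes, 2 were at least 2-fold higher and 7 lower, with a median of -0.84 and of -0.48 in the CORIN+ pair. Otx2, which defines forebrain and midbrain, differed by 0.02 (12.95 and 12.93), and En1 by -0.24 (9.46 and 9.70). Its paralog En2 was at 7.32 in the ESC-derived and 11.42 in the fetal array, 17.1-fold lower, and in the CORIN+ pair it was lower by a log2 difference of -4.67. Pax5, which acts with En2 at the isthmus, was at 7.40 against 10.82 (10.7-fold lower), Cnpy1, an FGF signalling modulator of the isthmus, at 8.29 against 10.85, and Pax8 at 7.15 against 8.34. Gbx2, on the hindbrain side of that border, was 2.97-fold lower, Irx2 2.93-fold and Sp8 2.87-fold. Pax2 (-0.76) and Fgf8 (-0.51) were under 2-fold and had signals under 9 in both arrays. In the other direction Wnt1, made by the isthmus and by the midlines of the midbrain, was at 12.43 against 8.47, 15.6-fold higher, and in the CORIN+ arrays it was at 11.55 and 9.86. The Wnt-responsive factor gene Sp5 was 2.31-fold higher.

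The largest block of lower genes was the GABAergic lineage of the midbrain. All 20 genes had a negative difference and 17 of 20 were at least 2-fold lower, while in the CORIN+ pair 14 of 20 were, with a median of -1.40. Gata2, which selects GABAergic over glutamatergic fate, was at 7.94 against 11.43, and its relative Gata3 was at 8.63 against 12.17. Their partner genes Tal2 and Tal1 were 5.35-fold and 5.34-fold lower, and the earlier selector gene Helt was at 6.62 against 9.72. Among genes of the differentiated neurons Gad2, 1 of the GABA-synthesizing enzymes, was at 6.25 against 11.54 (39.0-fold), Gad1 at 7.79 against 10.53 and the vesicular GABA transporter gene Slc32a1 at 7.02 against 9.59. Sox14, Lhx1, Dlx1 and Dlx2 were between 10.5-fold and 15.5-fold lower, and Nkx2-2, Zfpm2, Six3, Lhx5 and Zfpm1 between 2.31-fold and 5.59-fold. Dlx1, Dlx2 and Six3 are counted in the telencephalic and eye field list too, and the study names Six3 as a forebrain marker. The count of this list is therefore not of midbrain genes alone. The 3 under 2-fold were Otp (-0.998), Skor1 (-0.05) and Skor2 (-0.07), both Skor genes with signals under 7.3. Tal1 is also a gene of red blood cells, which are described below, and its share from them was not tested.

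Genes of the alar plate were also lower, with 9 of 14 at least 2-fold lower and none higher. The paired-box gene Pax6 was at 6.67 in the ESC-derived and 11.01 in the fetal array, and Tfap2b, an AP-2 factor of dorsal midbrain neurons, at 6.23 against 10.91. Zic1 (6.85-fold), Mab21l2 (7.06-fold), Lhx2 (5.76-fold), Tfap2a, Pax7, Zic4 and Gbx2 were the other 7. Pax3, a marker of the dorsal neural tube, had a difference of -0.59 (9.05 and 9.64) and Dmbx1, a gene of mesencephalic progenitors, one of 0.68 (10.76 and 10.07). In the CORIN+ pair 11 of these 14 genes were lower, and the median was -2.27.
Among genes of oculomotor, red nucleus and other glutamatergic neurons, 5 of 14 were at least 2-fold lower and 1 higher. Lhx9 was at 7.45 against 11.52, the red nucleus gene Pou4f1 was 2.84-fold lower, the motor neuron gene Isl1 3.38-fold, Nkx6-2 3.77-fold, and Slc17a6, the main vesicular glutamate transporter of the midbrain, was at 9.94 against 11.38. Phox2a, which oculomotor neurons need, and the acetylcholine transporter gene Slc18a3 had differences of 0.11 and 0.06 with signals near 8 in both arrays. Tbx20, a gene of visceral motor neurons and heart, was 3.05-fold higher.

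Of 15 genes of the caudal hypothalamus and subthalamic region, 1 was at least 2-fold higher and 1 lower, with a median of -0.05. Each count is 6.67% of the list, near the 4.54% and 3.52% of all genes. Of the same genes 1 was higher and 6 were lower in the CORIN+ pair, with a median of -0.63, and the difference between the pairs was not tested. Barhl2 was at 12.14 and 12.02, Dbx1 at 12.32 and 12.46, Nkx2-1 at 10.14 and 10.18, and the Wnt ligand gene Wnt8b at 10.85 and 10.41. In the ESC-derived CORIN+ array the same genes had signals of 9.58, 9.86, 8.49 and 8.09, and in the fetal CORIN+ array of 11.38, 12.07, 9.45 and 10.65. These transcription factor genes are also used in other parts of the brain, and no single one names a region. Barhl1 differed by -0.87. Sim2 was 2.83-fold higher and Lhx1 13.8-fold lower. Of 19 telencephalic and eye field genes, 9 were at least 2-fold lower, with Emx2 at 7.81 against 10.76, Nr2e1 at 7.29 against 10.59, Dlx5 at 8.03 against 10.24, Six3 at 8.08 against 9.86, and Tbr1 and Fezf1 2.67-fold and 2.24-fold lower. Dlx1, Dlx2 and Lhx2 of this list have been given above. Emx1, Vax1, Rax and Six6 lay between -0.41 and -0.11 with signals from 7.05 to 8.50, and the eye pigment regulator Mitf was 2.01-fold higher in its brightest cluster. Of 15 hindbrain and serotonergic genes only Gbx2 and Nkx2-9 (2.94-fold) were at least 2-fold lower, and the serotonergic genes Tph2 and Slc6a4 had signals under 7.1 in both arrays. Among all 37 Hox genes none reached 2-fold in either direction, and the highest signal of any Hox gene was 8.28 in the ESC-derived and 8.03 in the fetal array.

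**Figure D3:**
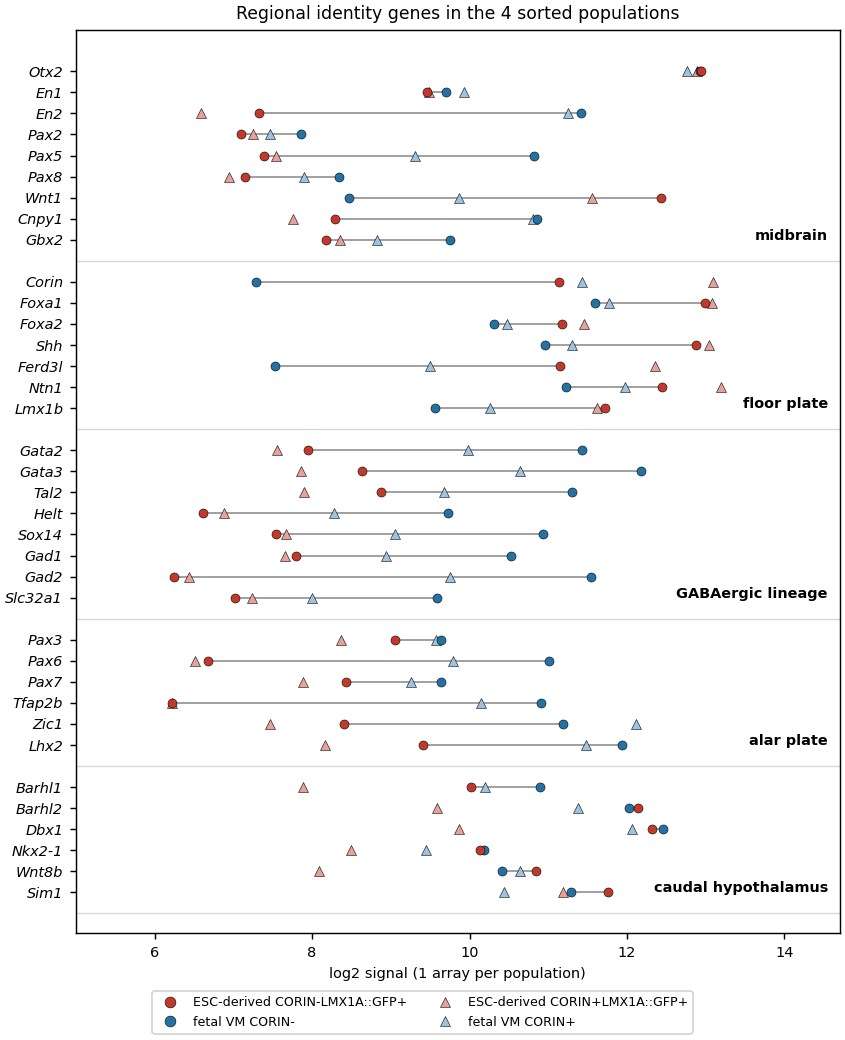
Log2 signals of 36 regional genes in the 4 sorted populations, 1 array per population, with circles for the CORIN- arrays (joined by a line) and triangles for the CORIN+ arrays, red for ESC-derived and blue for fetal cells. En2, Pax5 and the GABAergic genes lie to the left in ESC-derived cells, Wnt1, Corin and Ferd3l lie to the right, and Otx2, Dbx1 and Barhl2 nearly coincide in the CORIN- arrays (12.95 and 12.93, 12.32 and 12.46, 12.14 and 12.02).

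Several BMP ligands of the dorsal midline were higher in the ESC-derived array, although the median of the roof plate list was under 2-fold. Of 18 roof plate and choroid plexus genes, 6 (33.3%) were at least 2-fold higher, none lower, and the median was 0.17. Bmp4 was at 11.49 against 8.20 (9.74-fold), Bmp7 at 12.09 against 10.01 and Bmp6 at 10.42 against 8.57. In the CORIN+ pair these 3 ligands had differences of -0.14, 0.74 and 0.02. Clic6, a chloride channel protein of the choroid plexus, was at 9.50 against 6.43. Msx2 and the folate receptor gene Folr1 were the others. The defining genes Gdf7 (0.47), Wnt3a (-0.06) and Ttr (-0.32) were under 2-fold, the last 2 of them with signals under 7.5 in both arrays.

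Neuronal genes were mostly lower in the ESC-derived cells. All 23 pan-neuronal genes had a negative difference and 16 were at least 2-fold lower, and in the CORIN+ pair 19 of 23 were, with a median of -1.84. Tubb3, the neuronal tubulin, was at 10.38 against 12.50 and Dcx, a microtubule protein of migrating neurons, at 11.07 against 12.90. The RNA-binding protein genes Elavl3, Elavl4 and Rbfox3 were 3.40-fold, 2.68-fold and 2.17-fold lower, the growth cone proteins Stmn2, Stmn3 and Gap43 3.11-fold, 5.15-fold and 2.53-fold, and Ina, an intermediate filament, was at 10.79 against 13.26. Map2 (-0.77), Snap25 (-0.97) and Neurod1 (-0.58) were among the 7 under 2-fold. Signals of this list ranged from 7.70 to 12.23 in the ESC-derived array, so neuronal RNA was present there too.
Progenitor genes were split. Of 20, 5 were at least 2-fold lower and 2 higher. Sox2, the general neural progenitor factor, was at 12.49 and 12.14, Sox1 and Sox3 differed by -0.95 and -0.55, and the intermediate filament gene Nes by -0.86. Fabp7, a fatty acid carrier of radial glia, was 4.59-fold lower, Id4 8.59-fold and Ednrb 3.35-fold, while the glutamate transporter gene Slc1a3 differed by 0.58. No cell cycle gene of 24 reached 2-fold, but 19 were positive, with a median of 0.47 against 0.12 in the CORIN+ pair. Cdc6 was the highest (0.86), and the proliferation markers Mki67 and Top2a stood at 0.21 and 0.19.

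Within the Notch pathway, which keeps progenitors from differentiating, the 2 main effectors had opposite differences. Hes5 was at 8.74 against 11.51, 6.78-fold lower, and Hes1 was at 10.76 against 9.08, 3.20-fold higher. The receptor gene Notch2 was at 12.03 against 10.03 (4.02-fold) and Notch1 at 11.66 against 12.14 (-0.48). The CORIN+ arrays had the same directions, with -1.97 for Hes5, 1.31 for Hes1, 1.10 for Notch2 and -0.65 for Notch1. The feedback gene Nrarp was at 8.47 against 10.80, the ligand gene Dll1 was 2.11-fold lower, and Cbfa2t3, Gadd45g, Insm1 and Hes6, genes of newly born neurons, were 2.06-fold to 2.99-fold lower. The ligand gene Jag1 differed by -0.02 and Dll3 by -0.86. In all, 7 of 26 genes were at least 2-fold lower and 2 higher, with a median of -0.48.

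The 3 morphogen pathways of midbrain patterning each had a few genes past 2-fold. For hedgehog, Shh itself was higher, as given above, while the direct targets Ptch1 (12.84 and 12.31), Gli1 (9.36 and 9.17) and Hhip (9.41 and 9.38) differed by 0.53, 0.19 and 0.03. Nkx2-2 and Nkx2-9, the ventral genes next to the floor plate, were 5.59-fold and 2.94-fold lower, and the co-receptor genes Boc and Gas1 2.44-fold and 2.06-fold. Nkx6-1 was the second higher gene of the list, whose 18 genes had a median of 0.01. For FGF, the phosphatase gene Dusp6 was at 11.57 against 9.63 and the ETS factor gene Etv5 at 9.82 against 8.34, both targets that FGF signalling switches on, and the receptor gene Fgfr2 was 2.86-fold higher. Other readouts of the same pathway were under 2-fold, with Spry1 at 0.86, Etv4 at 0.55, Spry4 at 0.33 and Spry2 at 0.26. Fgf15, a target of SHH and FGF in the neural tube, was at 7.78 against 10.47, Cnpy1 was lower as given above, and of the 18 FGF genes 3 were higher and 2 lower by at least 2-fold, with a median of 0.39.
For Wnt, 7 of 29 genes were higher and 4 lower. Beside Wnt1, the inhibitor gene Dkk1 was at 12.36 against 8.55 (14.0-fold), and the target genes Nkd1 and Znrf3 were 2.30-fold and 2.14-fold higher, as were Fzd7, Dkk3 and Sp5. Axin2, the most used target, was at 10.48 and 9.96, and Lef1 was at 10.39 and 10.40. Wnt7a, Wnt7b, the receptor gene Fzd10 and the effector gene Tcf7l2 were 3.87-fold, 3.73-fold, 2.64-fold and 2.82-fold lower. The median of the list was 0.50, and 0.07 in the CORIN+ pair.

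RNA of pluripotency genes was present in the ESC-derived CORIN- array. Of 31 genes, 11 were at least 2-fold higher and none lower, and 2 of 31 were in the CORIN+ pair. Dppa5a was at 10.58 against 6.78, Utf1 at 9.80 against 6.76, Nanog at 9.50 against 6.93 and Pou5f1 (Oct-4) at 8.06 against 6.25. Dppa2, Dnmt3l, Tdgf1, Fbxo15 and Nr0b1, all active in ESCs or the epiblast, were 2.13-fold to 5.82-fold higher. These 9 genes had differences between -0.25 and 0.47 in the CORIN+ pair. Sall4 and Lin28a, which persist in early neuroepithelium, were 2.62-fold and 2.73-fold higher in the CORIN- pair and had differences of 1.52 and 1.17 in the CORIN+ pair. Zfp42 was at 7.20 and 6.30 (0.90), and Dppa3, L1td1 and Tcl1 had signals under 7.2 in both arrays and differences from -0.02 to 0.17. The 8-base octamer ATGCAAAT, which POU5F1 binds, was found on either strand in the 250 bases before the start of 1 of 30 RefSeq promoter windows of the list (3.33%) and in 1.60% of all 32851 windows.
Most defining markers of endoderm and mesoderm were at low signals in both arrays. Sox17, Gata4, Gata6, Mixl1 and Afp had differences from -0.06 to 0.26 and signals from 6.51 to 7.54. Eomes, which is in the telencephalic list too, was at 8.64 and 7.99, a difference of 0.64. The 5 of 23 genes at least 2-fold higher were the keratins Krt8, Krt18 and Krt19, Epcam and the signalling antagonist gene Cer1, of which the keratins and Epcam are also genes of simple epithelium. Krt8 was at 11.62 against 8.35 and Krt18 at 10.86 against 7.56, and in the CORIN+ pair they had differences of 2.54 and 2.60.

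Among genes of non-neural cells of the fetal head, the macrophage and mesenchyme lists differed less in the CORIN- pair than in the CORIN+ pair. This difference between pairs was not tested. Of the endothelial genes 3 were at least 2-fold higher and 1 lower in the CORIN- pair, and 2 and 3 in the CORIN+ pair. For pericyte and smooth muscle genes these counts were 4 and 1, and 0 and 2. For erythroid genes they were 0 and 5, and 0 and 6. In the CORIN- pair none of 20 macrophage genes reached 2-fold, and the list median was 6.48 in the ESC-derived and 6.60 in the fetal array. Csf1r, the receptor that macrophages depend on, was at 6.73 and 6.85, Cx3cr1 at 7.74 and 7.82, and Ptprc, the leukocyte common antigen, at 6.22 and 6.38, all below the median signal of their arrays. In the CORIN+ pair 17 of these 20 genes were at least 2-fold lower in the ESC-derived array, with a median of -3.27. The mesenchyme and meninges list had medians of 0.09 and -2.41 in the CORIN- and CORIN+ pairs. Twist1, a bHLH factor of mesenchyme and neural crest, was at 9.69 against 7.62, Dcn, a matrix proteoglycan, at 11.40 against 9.64, and Prrx1, Foxd1 and Foxc2 were 2.03-fold to 2.41-fold higher in the ESC-derived CORIN- array. The collagen genes Col1a1 (-0.56), Col1a2 (-0.42) and Col3a1 (-0.31), Lum (0.36), Osr1 (-0.31) and Tbx18 (0.16) were under 2-fold. Crabp1, Dlk1 and Zic1, which neural cells also express, were the 3 lower genes.
Endothelial genes were under 2-fold with 4 exceptions. Cdh5 was at 8.38 and 8.54, Pecam1 had a difference of 0.58, and Cldn5 was at 8.01 and 7.88. Kdr was 2.54-fold higher, as were the glucose transporter Slc2a1 and the thyroid hormone transporter Slco1c1, which neural cells can also express, and Mfsd2a was 3.24-fold lower. Of 12 pericyte and smooth muscle genes, the contractile genes Acta2 (11.05 against 9.40) and Tagln (9.11 against 7.66), Anpep and Vtn (13.07 against 10.70) were at least 2-fold higher, Abcc9 was 2.17-fold lower, and Pdgfrb and Rgs5 differed by 0.31 and -0.52. Red blood cell RNA was seen in the fetal array. Hba-x was at 7.59 against 11.36 and Hbb-bh1 at 5.64 against 8.72, and 5 of 10 erythroid genes were at least 2-fold lower, among them Tal1 and Slc4a1 (2.49-fold), while Gata1 and Klf1 differed by -0.21 and -0.55. In the neural crest, glia and sensory neuron list Sox10 (-0.49), Foxd3 (0.14) and Prph (0.19) were under 2-fold with signals under 8, Eya2 was 4.09-fold higher, and Isl1 and Olig2 were lower. None of these cell types was counted, and their parts in the differences of other genes were not tested.

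**Figure D4:**
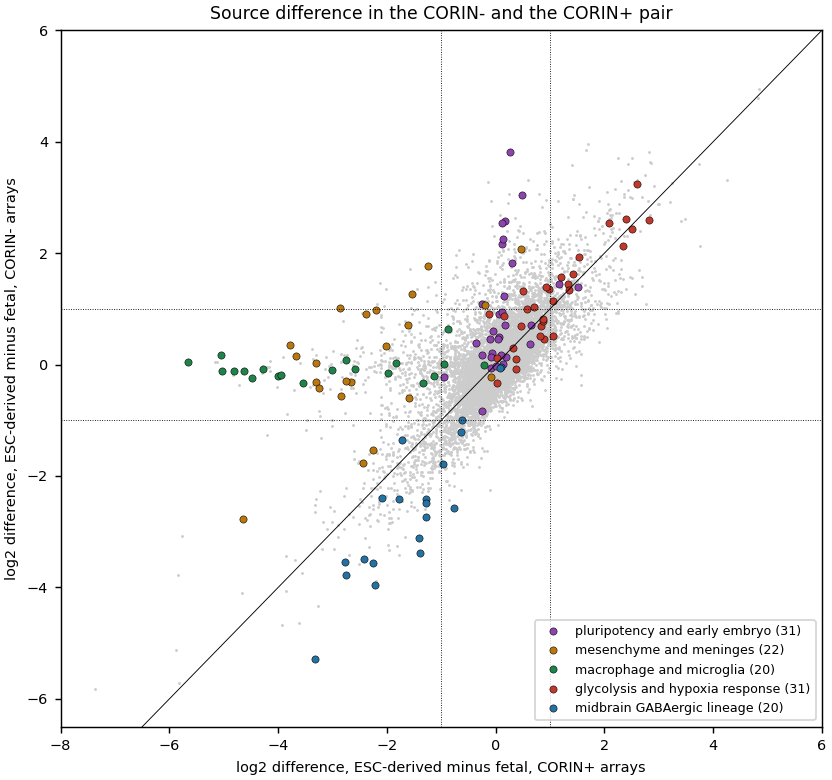
Log2 difference between ESC-derived and fetal cells of 19938 genes in the CORIN+ arrays (horizontal axis) and in the CORIN- arrays (vertical axis), 1 array per population. Colours mark 5 gene lists, dotted lines mark 2-fold and the solid line equal differences. Macrophage genes lie to the left, all within 2-fold on the vertical axis (list median -0.11), mesenchyme genes lie mostly to the left with vertical values from -2.78 to 2.07 (median 0.09), and the list medians of the CORIN- and CORIN+ pairs are 0.60 and 0.11 for pluripotency genes and 1.03 and 0.88 for glycolysis genes.

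For the extracellular matrix the counts also went apart between the pairs. Of 29 extracellular matrix genes, 8 were at least 2-fold higher and none lower in the ESC-derived CORIN- array, with a median of 0.45, whereas in the CORIN+ pair 2 were higher and 13 lower, with a median of -0.71. Postn, a matricellular protein, was at 11.47 against 8.99 (5.61-fold). The other higher genes were mostly components of basement membranes, the laminin chain genes Lama5 (9.95 against 8.11), Lamb1 (9.93 against 8.35) and Lamc1 (2.17-fold), Nid2 (3.53-fold), Col18a1 (3.06-fold) and the perlecan gene Hspg2 (2.58-fold), together with the fibrillin gene Fbn2. The type IV collagen genes Col4a1 and Col4a2, also of basement membranes, had differences of 0.06 and 0.52, and Fn1 one of 0.99.

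Glycolytic genes and other genes that respond to low oxygen were higher in the ESC-derived cells. Of 31, 29 had a positive difference and 17 were at least 2-fold higher, none lower, and in the CORIN+ pair 13 of 31 were higher, with a median of 0.88. For uptake and export, the glucose transporter genes Slc2a3 and Slc2a1 were at 12.42 against 9.18 and 13.36 against 11.74, and the lactate exporter gene Slc16a3 was at 11.96 against 9.35. Along the pathway, Hk2, Pfkl, Aldoa, Aldoc, Tpi1 and Ldha were 2.01-fold to 6.07-fold higher, and Pgk1 (0.79), Pgam1 (0.69), Pfkp (0.69) and Pkm (0.30) were under 2-fold. Pdk1, the kinase that turns pyruvate away from the mitochondria, was at 10.69 against 8.14. Egln3, an oxygen-sensing prolyl hydroxylase that is itself induced by hypoxia, was at 11.33 against 8.90, its relative Egln1 at 10.78 and 10.67, and the mitophagy receptor gene Bnip3 at 12.17 against 10.04. The collagen prolyl hydroxylase genes P4ha1 and P4ha2, Ak4, Ddit4 and Car12 were the rest, at 2.48-fold to 3.81-fold. Vegfa, the angiogenic factor, was at 11.64 and 10.83 (1.76-fold), Adm and Ndrg1 were at 0.87 and 0.90, and Car9 (0.12) and Kdm3a (-0.34) did not follow. Oxygen was not recorded in the sources used here, and its part was not tested.

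**Figure D5:**
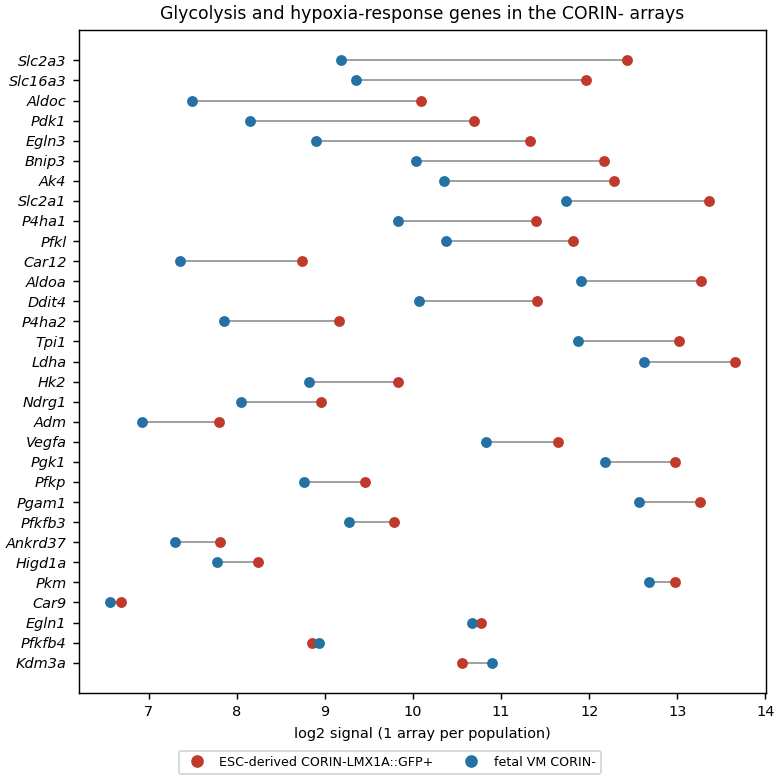
Log2 signals of 31 genes of glycolysis and the hypoxia response in the ESC-derived CORIN-LMX1A::GFP+ array (red) and the fetal VM CORIN- array (blue), 1 array each, ordered by their difference. The red point lies to the right for 29 of 31 genes, by the most for Slc2a3 (12.42 against 9.18), and to the left for Pfkfb4 and Kdm3a.

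Because these genes were higher together, the 250 bases before their start sites were searched for ACGTG, the core of the element that hypoxia-inducible factors bind, on both strands. The word also lies inside the E-box CACGTG, which other bHLH factors bind. It was present in 45.7% of the 46 RefSeq promoter windows of the list and in 16.6% of all 32851 windows, and CCGCCC, a GC-rich word with no link to oxygen, was present in 71.7% and 32.7%, so these windows also differ in base composition. Of 29 measured genes with a window, 16 were at least 2-fold higher, 11 of them with ACGTG, and 13 were not, 8 of them with ACGTG. Short stretches are shown for 4 of the higher genes and, for contrast, for Egln1, which holds the word and differed by 0.10. They are from RefSeq on GRCm38.p6, written 5′ to 3′ on the strand of the gene, with ACGTG or its complement CACGT in capitals. The Bnip3 stretch is chr7:138909552-138909671 on the - strand, Slc16a3 is chr11:120948947-120949066 on the + strand, Ak4 is chr4:101419453-101419572 on the + strand, Ldha is chr7:46845684-46845803 on the + strand and Egln1 is chr8:124949261-124949380 on the - strand.
Bnip3: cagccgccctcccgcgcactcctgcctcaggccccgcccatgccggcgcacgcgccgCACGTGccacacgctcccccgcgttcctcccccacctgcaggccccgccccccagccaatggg
Slc16a3: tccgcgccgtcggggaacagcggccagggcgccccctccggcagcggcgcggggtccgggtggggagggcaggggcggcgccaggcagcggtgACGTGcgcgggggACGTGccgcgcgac
Ak4: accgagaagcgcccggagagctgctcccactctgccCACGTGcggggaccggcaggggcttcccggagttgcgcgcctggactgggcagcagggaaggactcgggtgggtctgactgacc
Ldha: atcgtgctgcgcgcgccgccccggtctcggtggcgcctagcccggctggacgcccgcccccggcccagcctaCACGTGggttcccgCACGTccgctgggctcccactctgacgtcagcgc
Egln1: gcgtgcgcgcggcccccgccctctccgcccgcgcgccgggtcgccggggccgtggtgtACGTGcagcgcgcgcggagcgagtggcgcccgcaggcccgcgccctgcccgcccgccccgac
A match of these letters is a description and not a binding site. Bnip3 and Ak4 have 2 clusters each, and whether the brighter one lies at the printed locus was not checked. Nor was the locus of the brightest cluster checked for other named genes with several clusters. Among them are Pgk1 and Pgam1 with 3 each, and Pkm, Dppa2 and Etv5 with 2 each. In Bnip3 and Ak4 the word stands inside CACGTG, in Slc16a3 it occurs at separate places on the same strand, and in Ldha a CACGTG is followed by CACGT.

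Genes of the integrated stress and amino acid response, which ATF4 drives when amino acids are short, had 6 of 28 members at least 2-fold higher and none lower. Slc7a3, a cationic amino acid transporter, was at 9.59 against 7.08, Sesn2, a leucine sensor, at 10.67 against 8.83, and Asns, which makes asparagine, at 12.46 against 10.66. Stc2, Ddit4 and the glutathione-degrading enzyme gene Chac1 were 3.40-fold, 2.54-fold and 2.23-fold higher. Atf4 itself (-0.34), Ddit3 (-0.05), Trib3 (0.15), Atf3 (0.29) and Slc7a11 (0.34) were under 2-fold, and so were the serine synthesis genes Phgdh (-0.64), Psat1 (0.45) and Psph (0.03). The C/EBP-ATF element TGATGNAAN, searched on both strands of the 250 bases, was found in 26.7% of 30 windows of the list and in 3.44% of all windows. Asns and Chac1 hold it among the 5 higher genes with a window, and so do 5 of the 20 that were not higher. The Asns stretch, chr6:7693210-7693329 on the - strand of GRCm38.p6 from RefSeq, is shown because its element in capitals lies just before the start of a gene in this group.
Asns: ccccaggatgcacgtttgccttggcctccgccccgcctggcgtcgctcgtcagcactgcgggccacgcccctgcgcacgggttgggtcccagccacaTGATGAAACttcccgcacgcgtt
None of 20 genes of cholesterol synthesis reached 2-fold, the median was 0.03, and Hmgcs1, Sqle, Idi1 and Insig1 lay between -0.53 and 0.03. The sterol element TCACNCCAC was in 1 of 19 windows of this list (5.26%) and in 1.05% of all windows.

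Of 38 axon guidance genes 9 were at least 2-fold higher and 9 lower (23.7% each), beside 4.54% and 3.52% of all genes. Higher were the secreted ligand genes Sema3a (10.85 against 7.79), Sema3d (10.28 against 7.15), Sema3e (9.69 against 7.01), Slit1, Slit2 and Slit3 (2.20-fold, 3.61-fold and 4.15-fold) and Ntn1, the membrane-bound ephrin gene Efnb2, and the semaphorin receptor gene Nrp2 (11.64 against 9.65). Lower were the Slit receptor genes Robo1 and Robo3 (2.45-fold and 6.92-fold), the netrin receptor genes Dcc (11.27 against 12.59) and Unc5a, the ephrin receptor gene Epha5 (7.09 against 10.19), Plxna4, the axonal adhesion genes Cntn2 and L1cam, and Draxin, a secreted ligand. Robo2 differed by -0.99. Of the pan-neuronal genes 16 of 23 were lower in the same array, and their part in these differences was not tested.
Among 296 miRNA genes 1 was at least 2-fold higher and 2 lower, and 293 were under 2-fold, with a median of -0.10. Both shares are under the 4.54% and 3.52% of all genes. The array measures transcript of the locus and not the mature miRNA. Mir218-1, which lies inside Slit2, was at 9.94 against 7.26 (6.39-fold), and its host gene was 3.61-fold higher. In the CORIN+ pair Mir218-1 had a difference of 2.83 and Slit2 of 0.73. Mir568 and Mir19b-1 were 2.74-fold and 2.05-fold lower. The main mature product of Mir218-1 is shown from RefSeq (chr5:48223966-48223986, + strand, GRCm38.p6), with its seed in capitals.
mmu-miR-218-5p: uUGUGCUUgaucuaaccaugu

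Retinoid genes had 5 of 17 members at least 2-fold higher and 1 lower. Rbp4, the carrier of retinol, was at 10.23 against 6.92, and Stra6, its receptor, at 11.16 against 9.74. Dhrs3, which reduces retinal and is induced by retinoic acid, was at 9.70 against 7.76, and Rara and Aldh1a1 were 2.29-fold and 2.57-fold higher. The other retinoic acid targets Cyp26a1 and Rarb were at 0.90 and 0.89, and Crabp1, which binds retinoic acid in the cytoplasm, was at 11.02 against 12.78. Motile cilium genes had 6 of 38 at least 2-fold higher, against 16 of 38 in the CORIN+ pair. They included Jhy (9.80 against 7.75), Ccdc114, the dynein heavy chain gene Dnah11, Rsph4a, Cfap44 and Cfap126, while Foxj1, the master regulator of motile cilia, was at 9.30 and 8.61. Of 20 antigen presentation and interferon response genes 4 were higher, namely Ifitm1, Ifitm2 and Ifitm3 (9.73 against 6.79), which embryonic cells also express, and Trim25. The interferon-induced genes Ifit1 (-0.20), Irf7 (-0.08), Oas1a (0.07) and Psmb8 (-0.12) were under 2-fold. Of 20 immediate-early and heat shock genes, which can be switched on during cell dissociation, Hspb1 alone passed 2-fold (10.20 against 7.51). That is 5% of the list, near the 4.54% of all genes that were higher. Fos was at 8.03 and 7.86, Jun at 11.20 and 11.21 and Egr1 at 9.79 and 9.43.

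Imprinted genes, whose expression from 1 parental allele can drift in cultured ESCs, had 5 of 30 members higher and 5 lower by at least 2-fold. Igf2, a fetal growth factor, was at 13.20 against 11.30, Peg3 at 13.28 against 11.78, and Asb4, Phlda2 and Sfmbt2 were 2.18-fold to 2.54-fold higher. Cdkn1c, a growth-restraining inhibitor of cell division, was at 8.75 against 11.43. In the imprinted domain that holds Dlk1 and Meg3, both genes were lower (2.91-fold and 2.37-fold), and Rian, Rtl1 and Dio3 of the same domain had differences of -0.89, -0.42 and -0.09. Zim1 and Calcr were the others lower. Allele-specific expression was not measured. Of 8 genes of X inactivation and the Y chromosome, Xist and Kdm5d (6.72 against 9.67) were lower. The Y-linked genes Eif2s3y (10.49 and 10.26) and Uty (9.64 and 9.10) were above the median signal of both arrays. The sex of the ESC line and of the fetuses is not given in the sources used here.

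The CORIN+ pair gave a second look at the source difference, since it shares no array with the CORIN- pair, although cultures, litters and array run may be shared. In the CORIN+ pair 594 genes (2.98%) were at least 2-fold higher and 872 (4.37%) lower, together 7.35%. At least 2-fold higher in both pairs were 381 genes, which is 42.1% of those higher in the CORIN- pair and 64.1% of those higher in the CORIN+ pair. At least 2-fold lower in both were 416 genes, 59.3% and 47.7%. Of the 906 higher genes 804 had a positive difference in the CORIN+ pair too (88.7%), and of the 702 lower genes 701 had a negative one (99.9%). The share of all genes with the same sign in both pairs was not computed, so these 2 shares have no background beside them. No gene was lower in the CORIN- and higher in the CORIN+ pair at 2-fold, and 14 were higher in the CORIN- and lower in the CORIN+ pair.

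Of 5 surface marker candidates of the study, Anxa2 and Folr1 were at least 2-fold higher in the ESC-derived CORIN- array, and the others were under 2-fold. Anxa2, a phospholipid-binding protein, was at 10.73 against 8.37 (5.15-fold), and Folr1 was at 9.96 against 8.51 (2.73-fold). Lrtm1, a leucine-rich repeat membrane protein, was at 10.63 and 9.65, 1.98-fold and just under the threshold. Tm4sf1 was at 8.12 and 7.33, and the neurokinin receptor gene Tacr1 at 8.67 and 8.75.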

How the data were processed

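RNA from each sorted population was prepared with a whole-transcript kit and measured on 1 Affymetrix mouse array. The authors deposited log2 signals for 28856 transcript clusters. They name GeneSpring 13.0. How probes were summarized and arrays normalized, and the build, is not given in the sources used here. No detection calls were used. Of the clusters, 21789 have 1 gene symbol, 1621 have several and 5446 have none in the annotation used. For 21698 clusters the symbol was brought up to date by gene identifier, and the cluster with the highest mean over the 4 arrays stood for a gene with several.

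Differences were taken as ESC-derived minus fetal and counted at 2-fold, with no test. The members and lists were chosen with earlier results of these data known. Named were the genes of the study's text, the 20 highest and 20 lowest genes, and in each list its defining members, up to 6 members farthest in the direction of its median and members at least 2-fold the other way. In some lists further members are named, chosen after their values were seen, and of some the defining members are covered by counts or ranges. The code that takes differences and counts genes past 2-fold was checked on simulated signals with known differences, which is no test of the counts themselves. Alternatives were quantile normalization, centring, a signal filter, 32 added to the linear signal, the mean over clusters, thresholds of 1.5-fold and 4-fold, and clusters in place of genes. Promoter and miRNA sequences are from RefSeq, and no genome was used. Python 3.11.15, numpy 2.4.6, pandas 2.3.3 and matplotlib 3.10.9 were used.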

Additional observations from a re-analysis of the deposited data

Results flagged for a closer look

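The 14 genes at least 2-fold higher in the ESC-derived array of the CORIN- pair and at least 2-fold lower in that of the CORIN+ pair moved in opposite directions, which was not tested between the pairs. Their log2 differences in the CORIN- pair were 1.76 for Dcn, 1.72 for Ctsc, 1.48 for Runx1, 1.46 for Foxf2, 1.40 for Egflam, 1.36 for Fbn2, 1.36 for Hapln1, 1.27 for Prrx1, 1.24 for Ehd4, 1.14 for Tmem119, 1.08 for Hmcn1, 1.04 for Apoe, 1.02 for Foxc2 and 1.01 for Anxa3. In the CORIN+ pair they ranged from -1.10 for Ehd4 to -2.87 for Foxc2. The Hmcn1 value is that of the brightest of its 77 clusters, and its other clusters are not described here. The forkhead gene Foxf2, of vessel-associated mesenchyme, had signals of 9.73 in the ESC-derived CORIN- and 8.09 in the ESC-derived CORIN+ array, and of 8.27 and 10.22 in the fetal arrays. Apoe, a lipid carrier that macrophages make in quantity, had 10.72 and 10.34 in the ESC-derived arrays and 9.68 and 12.38 in the fetal ones. For every one of the 14 genes the fetal CORIN+ array had the highest signal of the 4.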

How the results depend on the processing

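No paired analysis was possible because each population has 1 array, and no array could be left out. The counts of 906 higher and 702 lower genes became 2068 and 1432 at 1.5-fold and 168 and 153 at 4-fold, and genes past the threshold in both pairs became 61 higher and 78 lower at 4-fold. Quantile normalization, centring, 32 added to the linear signal and the mean over clusters moved no list median by more than 0.29. Keeping only genes above the median signal in at least 1 of both arrays, which drops dim genes unless their other array is bright, moved 12 of 36 list medians. They became -1.51 for oculomotor and red nucleus (7 genes left), -1.42 for telencephalic (15), -0.71 for hindbrain (4), 1.0 for roof plate (12), 1.02 for pluripotency (20), 1.29 for endoderm and mesoderm (7), 1.45 for pericyte (7), 0.65 for macrophage (1), -3.08 for erythroid (5), 0.69 for motile cilium (11), 1.05 for retinoid (10) and 0.43 for antigen presentation genes (12). With the signal filter 32 of 36 list medians kept their sign, and under quantile normalization 35 did. Among the medians whose sign changed with the filter were hindbrain (0.13 without it) and macrophage (-0.11 without it). Of 714 named and listed genes none changed sign past 2-fold under the alternatives run. Of 238 past 2-fold, 225 stayed so with 32 added to the linear signal, 235 under quantile normalization, 236 with the mean over clusters and 238 after centring. Transcript clusters in place of genes for the overlap of the pairs, chosen after the data were seen, moved no count by over 1.5 times. Of 85 genes past 2-fold with several clusters, 7 had a cluster of the other sign.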

Other observations

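Some groups were chosen only after their values had been seen, so their counts are descriptions. Of 26 target genes of the tumour suppressor p53, 9 were at least 2-fold higher in the ESC-derived CORIN- array and none lower, and the same counts were found in the CORIN+ pair. Eda2r, a receptor of the TNF family, was at 9.81 against 6.88, the death receptor gene Tnfrsf10b at 10.37 against 7.63, the desmosomal gene Perp at 8.44 against 6.27 and Ccng1 at 12.64 against 11.40. Mdm2, the p53 inhibitor that p53 induces, was at 10.83 and 10.87, and Pmaip1 and Bbc3, genes of cell death, had differences of -0.03 and 0.03. Cdkn1a was not analysed here. The metallothionein genes Mt1 and Mt2, which bind metals, were at 9.89 against 7.87 and 12.04 against 9.04 and had differences of 0.35 and 0.51 in the CORIN+ pair, whereas Mt3 differed by -0.30 and Mt4 by -0.18. All 10 genes of simple epithelium had a positive difference, 6 of them at least 2-fold, with Cldn6, a tight junction gene of embryonic epithelia, at 10.51 against 7.31 and the E-cadherin gene Cdh1 at 9.38 against 8.11.

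Of the 5446 unnamed clusters, 100 (1.84%) were at least 2-fold higher and 212 (3.89%) lower. Of the 1621 clusters with several symbols, 41 were higher and 57 lower. Kdm5d was lower by a log2 difference of -2.95 in the CORIN- and -3.10 in the CORIN+ pair. Uty and Eif2s3y, also Y-linked, had differences of 0.54 and 0.22 in the CORIN- pair and of 0.79 and 0.66 in the CORIN+ pair. The Y-linked genes Zfy1, Zfy2, Usp9y and Sry had differences from -0.16 to 0.34 in the CORIN- pair. Their signals in its arrays were low or near the median, from 4.74 to 8.13.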
